A study of Mus musculus with 16 samples.

Results

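The proteasome is the barrel-shaped protease that breaks down proteins marked with ubiquitin. Described here are the mouse genes for its subunits whose symbol is Psma, Psmb, Psmc or Psmd followed by a number, without Psmb8, Psmb9 and Psmb10, the immunoproteasome subunits, which are given apart. Of 55450 genes in the deposited table, 36 met this rule: 8 Psma, 8 Psmb, 6 Psmc and 14 Psmd genes. Levels are given as CPM, a gene's count scaled to the normalised total of its library. Testing needed an average level of 1 CPM or more across the 16 libraries, which 34 of the 36 reached, among 11675 genes in all.

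The study measured RNA by bulk sequencing in primary hepatocytes of wild-type mice, to learn how itaconate, a metabolite made by activated macrophages, acts on these cells with and without added lipid. There were 4 groups of 4 libraries: untreated cells, cells given 10 mM sodium itaconate, cells given a defined mixture of cholesterol and fatty acids at a dilution of 10 (lipid), and cells given both (lipid plus itaconate). Treatment ran overnight, and each group was kept in complete medium with serum and an insulin-transferrin-selenium supplement. The cells came from perfused livers by low-speed centrifugation. They were sampled in culture at a single time, so the libraries hold no cells in tissue and no time course. Libraries carry letters A, B, C and D, but the labels do not say whether letters are separate cultures or animals, so the p-values measure the spread between these samples.

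The 4 untreated libraries held between 22346049 and 28619798 counts, with a median of 27967435. Itaconate libraries held between 27211869 and 35512004 (median 28467578), lipid libraries between 23562859 and 28558693 (median 24695330), and those with both between 25812579 and 35378517 (median 27793096). Values of a group are given in the order A, B, C and D, in CPM, and group means with their SD over n = 4 libraries. Differences are log2 fold changes with their standard error (SE), from edgeR's quasi-likelihood test with terms for treatment and letter, so that 1 means a doubling. A gene is called where its p, adjusted over 11675 genes by the Benjamini-Hochberg method, is under 0.05. Intervals are 95% confidence intervals of the log2 fold change.

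The proteasome core is a stack of rings: outer rings of alpha subunits, which gate the entrance, and inner rings of beta subunits, some of which cut peptide bonds. A regulatory cap with a ring of ATPases and a set of other subunits recognises ubiquitin chains, removes them, unfolds the protein and feeds it to the core. Liver cells use the proteasome to clear misfolded and short-lived proteins, among them regulators of lipid metabolism. The transcription factor Nrf1 is known to drive the subunit genes together when proteasome activity is low.

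Hepatocyte markers were abundant in each library. The 6 hepatocyte markers (Alb, Apoa1, Ttr, Hnf4a, Serpina1c and Cps1) summed to 44064 ± 6782 CPM in untreated cells, 45129.7 ± 6813 with itaconate, 38619 ± 5022 with lipid and 40129 ± 8811 with both, with Alb, the serum albumin gene, the most abundant. Single libraries ran from 39112 to 54077 CPM untreated, 38971 to 54464 CPM with itaconate, 34239 to 45759 CPM with lipid and 30374 to 50533 CPM with both. Of 8 macrophage markers 7 were tested, with Ptprc under the filter. They summed to 569, 516, 569 and 569.5 CPM in the same order of groups, with single libraries from 447 to 673 CPM. Its most abundant gene was Cd14 at a mean of 316 CPM, followed by Cd68 at 218 CPM. Adgre1, Clec4f and Csf1r, which define liver macrophages, were at 1.78, 2.19 and 2.30 CPM. The 5 endothelial markers summed to 15.2, 13.3, 16.2 and 13.8 CPM, with Cdh5 the most abundant. The 4 cholangiocyte markers, of which Sox9 alone was tested, summed to 126, 127, 98.3 and 98.0 CPM. The 6 stellate cell markers summed to 1.13, 1.27, 1.09 and 0.941 CPM, with Dcn the most abundant. The 4 lymphocyte markers summed to 0.198, 0.324, 0.19 and 0.138 CPM, with Cd79a the most abundant and Nkg7 at 0 in the 16 libraries. With lipid against untreated 3 of 6 hepatocyte markers were lower (Ttr, Serpina1c and Alb) and 4 against itaconate (also Cps1, with Hnf4a higher), but the number lower ran from 0 to 5 over the fits in both. Of the genes tested 23.7% and 23.5% were lower in these comparisons, and 23.8% and 23.5% higher. Of the macrophage markers, Adgre1 and Marco were lower in both comparisons in 25 of 25 fits. With lipid Cd14 was lower and Cd68 higher, each in 24 of 25 fits, a call lost without the letter term (adjusted p 0.402 and 0.0726 in that order). Against itaconate Cd68 was higher, and Csf1r and Lyz2 were lower, in 25 of 25 fits, and Clec4f was lower, in 16 of 25. Of the endothelial markers, Lyve1 was higher with lipid, in 14 of 25 fits, and Stab2 was lower in both comparisons, in 19 and 10 of 25. Sox9 was lower in both, again in each fit. With itaconate against untreated Lyz2 was higher, a call lost without the letter term or without any 1 of untreated B or D or itaconate A, B or C (adjusted p from 0.0551 to 0.279), and Cd68 lower, a call lost without the letter term or without itaconate C (adjusted p 0.576 and 0.0548 in that order). The part of other cells in the results that follow was not tested. In bulk RNA fewer cells of a type and less RNA per cell cannot be told apart.

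Proteasome genes were well expressed in these cells. Per kilobase of exon, the 34 tested members had a median of 44.0 CPM per kilobase, from 3.55 for Psmd9 to 186 for Psmd8, against a median of 5.97 CPM per kilobase for the 11675 genes. On the same scale the class medians were 45.0 CPM per kilobase for the alpha ring, 55.2 for the beta ring, 49.1 for the ATPases and 33.8 for the Psmd genes. The length counts each base in any annotated exon of a gene, whichever transcripts the cells make. Ranks per length, here and below, thus also depend on the annotation. The coefficient of variation within a group, averaged over the 4 groups, had a median of 5.39% among members, from 2.53% for Psmd2 to 12.6% for Psma7, and of 8.70% over the genes tested. The members lie on 16 chromosomes, with 6 on chromosome 11, 5 on chromosome 2, and 4 each on chromosomes 7 and 14. Under the filter were Psma8, an alpha subunit made in the testis, with 277 counts in total (ENSMUSG00000036743.4; 10 to 27 counts per library), and Psmb11, a beta subunit made in the thymus (ENSMUSG00000072423.5, GRCm38 chr14:54621433-54629556, plus strand). Psmb11 had 3 counts in total, 1 each in untreated B, untreated C and lipid plus itaconate B.

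In the reported fit a majority of the tested proteasome genes were higher with lipid, by small steps, and against untreated cells the majority was narrow. With itaconate edgeR called none of the members. The number higher with lipid against untreated was 17 by DESeq2, 8 without the letter term and 26 with upper-quartile scaling. With lipid against untreated, 18 of 34 members were higher and 1, Psmd10, was lower. Of the genes tested 47.5% were called in that comparison, 23.8% higher and 23.7% lower. Members were therefore called in 55.9% of cases, not far above the background, but nearly always upward. With lipid plus itaconate against itaconate, 24 members were higher and 1, again Psmd10, was lower, against 47% of the genes tested, 23.5% higher and 23.5% lower. The median log2 fold change of the members was 0.11 and 0.15 in these comparisons, against 0.00473 and 0.00407 over the genes tested. A positive value was found for 29 and 32 of the 34, and for 50.7% and 50.8% of the genes tested. Sizes were modest: called members had a median absolute log2 fold change of 0.17 and 0.19, against 0.33 and 0.32 for called genes. The untreated and itaconate groups serve as controls here and again in the comparisons for itaconate, so the comparisons are not independent.

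The summed level of the 36 genes was 4994, 4932, 4806 and 4692 CPM in untreated cells and 4751, 4947, 4483 and 4642 CPM with itaconate. It was 5379, 5451, 4845 and 5009 CPM with lipid. It was 5395, 5371, 4908 and 5056 CPM with lipid plus itaconate. Lipid libraries A and B stood above the untreated range, D also did, and lipid C lay inside it, but each lipid library was above the untreated one of its letter. In the group with both, libraries A, B and D were above the itaconate range and C was below itaconate B. Each was again above the itaconate library of its letter. The share of mitochondrial counts, a sign of RNA or cell quality, was 3.63%, 3.70%, 3.65% and 4.14% in untreated cells, 4.11%, 3.46%, 4.70% and 4.58% with lipid. It was 4.29%, 3.27%, 4.39% and 4.69% with itaconate and 3.99%, 4.11%, 6.01% and 4.97% with lipid plus itaconate. Library C was thus the highest in mitochondrial share in both lipid groups. Without lipid C 20 members were called with lipid against untreated (19 with it), and without lipid plus itaconate C 25 were called against itaconate, as with it.

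**Figure D1:**
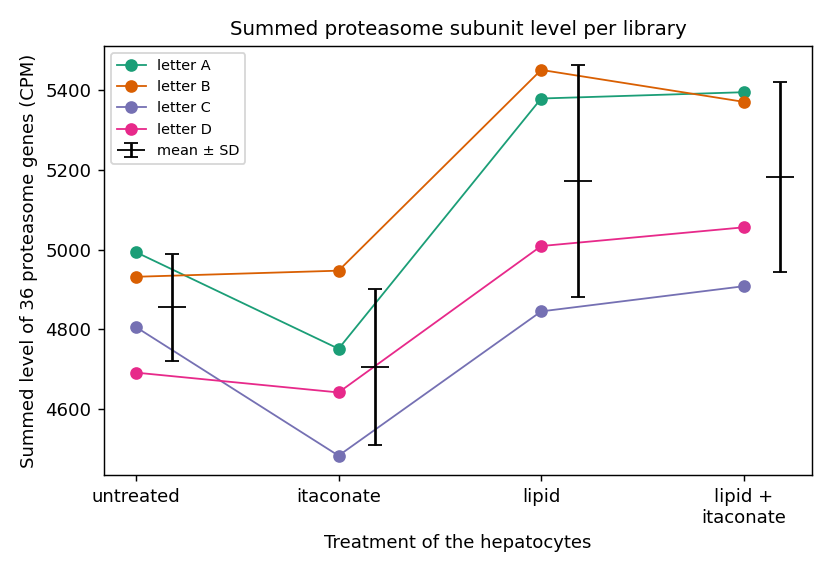
Summed level of the 36 proteasome subunit genes in CPM (vertical axis, which starts above 0) in each library, by group, with lines joining libraries of a letter and black marks for the group mean and SD. Lipid libraries run from 4845 to 5451 CPM and untreated libraries from 4692 to 4994 CPM, so the groups overlap through lipid C.

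The count with lipid depended on the fit. Without the letter term 9 members were called (8 higher, 1 lower), against 35.5% of the genes tested, and 10 without untreated B or 11 without lipid B. By DESeq2 and limma the counts were 18 and 20. With upper-quartile scaling 27 were called (26 higher, 1 lower), against 49.4% of the genes tested, and the median of 0.11 became 0.17, where that of the genes tested became 0.06. Psma1, Psma4, Psmc2, Psmd3, Psmd4, Psmd5 and Psmd10 were called in each of the 25 fits. Against itaconate, with lipid plus itaconate, the call count without the letter term was 17, with none of them lower, against 34.2% of the genes tested. With upper-quartile scaling it was 30, each higher, against 48.5%.

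The 18 members higher with lipid against untreated were among the 24 higher with lipid plus itaconate against itaconate, which uses other libraries of the same letters. A further 6 were called higher in the latter alone, and 10 were called higher in neither: Psma3, Psmb5, Psmb6, Psmb7, Psmd1, Psmd6, Psmd7, Psmd8, Psmd10 and Psmd11. The share of all tested genes called higher in both comparisons is not given here. The overlap of calls is thus not shown to be particular to the members. By letter, the median difference of the 34 members between lipid and untreated was 0.14 in A, 0.18 in B, 0.01 in C and 0.11 in D. Letter C thus held little of the difference in that comparison. Between lipid plus itaconate and itaconate it was 0.18 in A, 0.14 in B, 0.15 in C and 0.12 in D, with C like the others. In the first comparison 19 members (55.9%) were higher in each of the 4 letters and 1 was lower in each, against 29.1% and 29.4% of the genes tested. In the second 27 (79.4%) were higher in each and 0 lower, against 27.9% and 27.4%. The ranges of the groups did not overlap for 12 members with lipid against untreated (11 higher, and Psmd10 lower), or 35.3%, near the 32.5% of the genes tested (16.6% higher and 15.9% lower). They did not for 13 (38.2%) with lipid plus itaconate against itaconate, each higher, where they did not for 31.4% of the genes tested (16.6% higher and 14.8% lower).

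**Figure D2:**
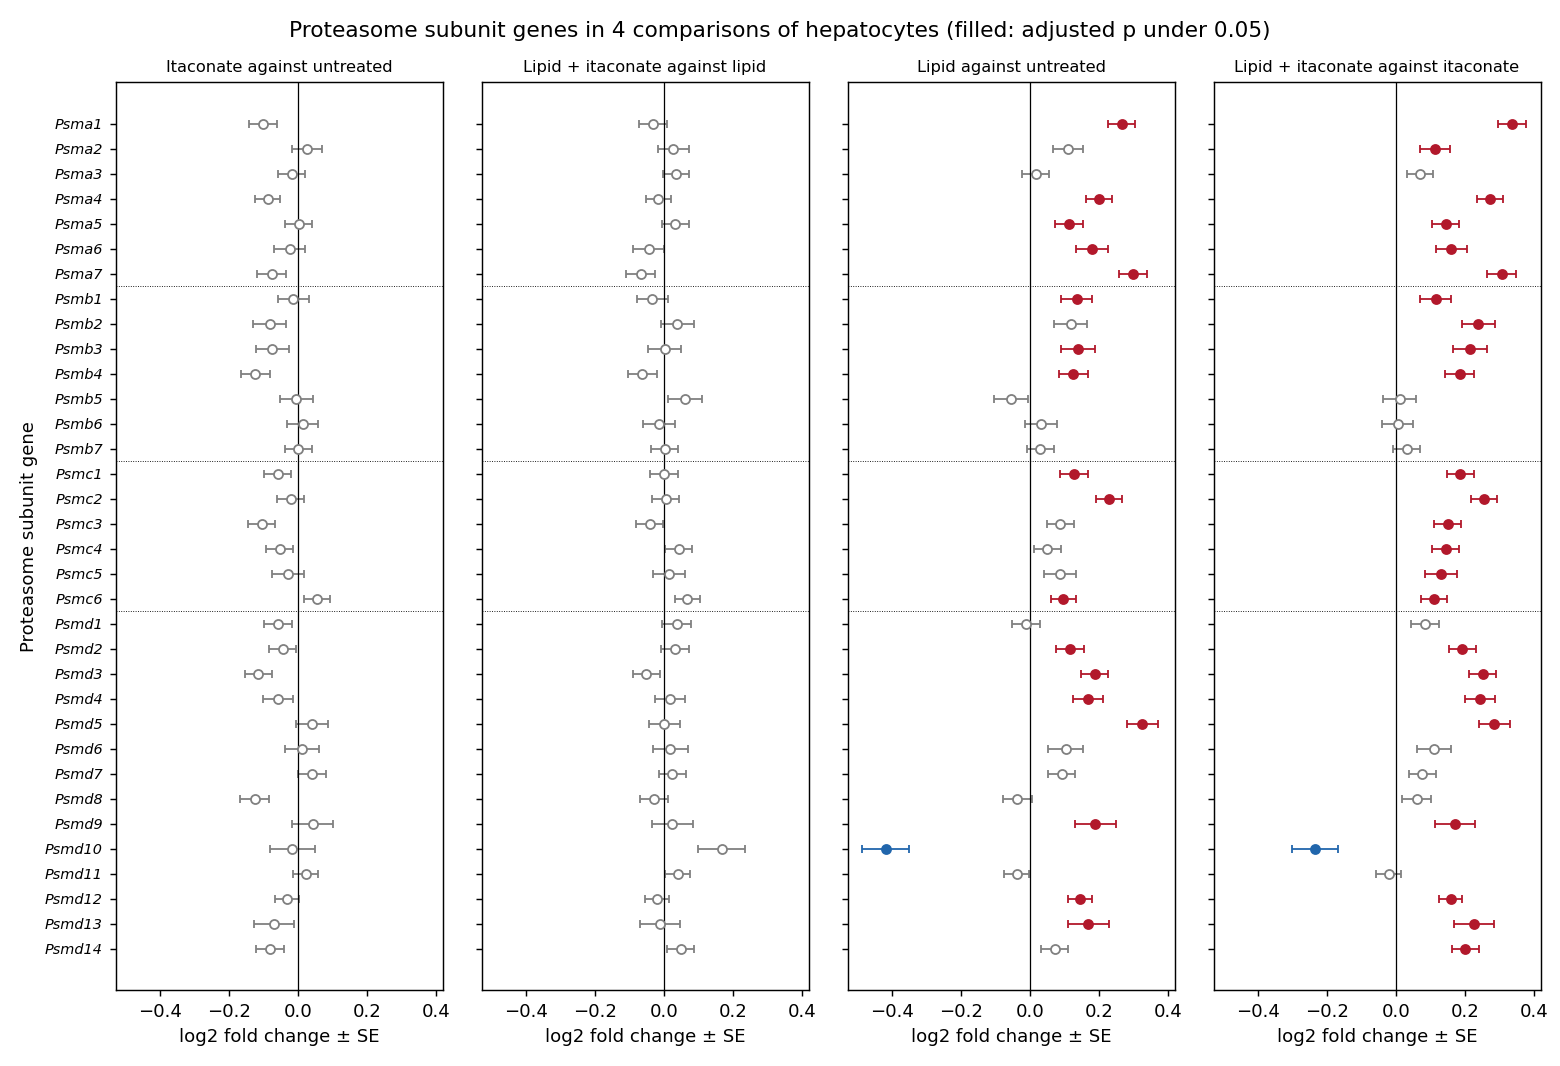
Log2 fold change of each of the 34 tested members (points, with bars for the SE) in 4 comparisons, with dotted lines between the classes and filled marks where edgeR's adjusted p is under 0.05. In both lipid comparisons points lie mostly right of 0 (29 and 32 of 34), and Psmd10 lies farthest left, at −0.42 and −0.24.

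In the reported fit most alpha ring genes were higher with lipid. Of the 7 tested genes of the ring 5 were higher with lipid against untreated (median log2 fold change 0.18). With lipid plus itaconate against itaconate 6 were higher (median 0.16). These are 71.4% and 85.7%, against 23.8% and 23.5% of the genes tested called higher. In each of the 4 letters 6 and 7 of them were higher, against 29.1% and 27.9% of the genes tested. Without the letter term the calls of Psma5, Psma6 and Psma7 with lipid were lost, and those of Psma2, Psma5 and Psma6 against itaconate. The ring's summed level was 864 ± 58.9 CPM in untreated cells, 839.9 ± 55.2 CPM with itaconate, 965 ± 66.4 CPM with lipid and 959.9 ± 73.1 CPM with both. Psma1 (ENSMUSG00000030751.18, GRCm38 chr7:114264606-114276118, minus strand) had 110.2, 109, 100.1 and 105 CPM in untreated cells, 99.6, 103, 90.7 and 102 CPM with itaconate, 136, 135, 115 and 124 CPM with lipid and 129, 123, 118 and 128 CPM with both. Each lipid library was above the untreated range and each library with both above the itaconate range. The log2 fold change was 0.26 (SE 0.0401, edgeR adjusted p = 7.29e-05) with lipid and higher in 4 of 4 letters. Against itaconate it was 0.33 (SE 0.0401, edgeR adjusted p = 9.81e-06), also in 4 of 4 letters. Psma4 (ENSMUSG00000032301.13, GRCm38 chr9:54950790-54958030, plus strand) had 144, 137, 129.7 and 133 CPM in untreated cells, 134, 133, 116 and 129 CPM with itaconate, 164, 165, 146 and 150.4 CPM with lipid and 161, 154, 146 and 157 CPM with both. As for Psma1, the groups with and without lipid did not overlap in either comparison. Its log2 fold change was 0.20 (SE 0.0373, edgeR adjusted p = 0.000432) and 0.27 (SE 0.0372, edgeR adjusted p = 3.37e-05), higher in 4 of 4 letters in both.

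Psma7 (ENSMUSG00000027566.15, GRCm38 chr2:180036374-180042433, minus strand), the member with the highest coefficient of variation within groups, had 128, 118, 96.0 and 97.3 CPM in untreated cells, 118, 112, 90.4 and 95.1 CPM with itaconate, 148, 144, 123 and 122 CPM with lipid and 144, 139, 107 and 124 CPM with both. Letters A and B were above C and D in each group, so the groups overlapped although lipid was higher within each letter. The log2 fold change was 0.30 (SE 0.0414, edgeR adjusted p = 3.47e-05) with lipid and 0.31 (SE 0.0414, edgeR adjusted p = 3.08e-05) with lipid plus itaconate against itaconate, higher in 4 of 4 letters in both. The call with lipid was lost without the letter term (adjusted p 0.057). Psma5 (ENSMUSG00000068749.9, GRCm38 chr3:108256926-108279974, plus strand) was the most abundant alpha subunit per length, at 96.9 CPM per kilobase, and had 125, 123, 121 and 120.0 CPM untreated, 125, 127, 115 and 122 CPM with itaconate, 137, 139, 123 and 129.8 CPM with lipid and 141, 147, 121 and 132 CPM with both. Lipid C and the library C with both lay within the range of their controls. It rose by 0.11 (SE 0.0395, edgeR adjusted p = 0.0283) with lipid, in 4 of 4 letters, and by 0.14 (SE 0.0393, edgeR adjusted p = 0.00751) against itaconate, in 4 of 4 letters. With lipid the call was lost without the letter term, with no filter or without any 1 of untreated A, B or D or lipid A, B or D (adjusted p from 0.0547 to 0.134). Against itaconate the loss came without the letter term (adjusted p 0.0613).

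Psma2 (ENSMUSG00000015671.11, GRCm38 chr13:14613240-14674236, plus strand), the least abundant per length at 29.5 CPM per kilobase, had 107, 103, 98.8 and 104 CPM untreated, 104, 114, 99.6 and 102 CPM with itaconate, 108, 117, 107 and 113 CPM with lipid and 118, 125, 104 and 107 CPM with both. The untreated and lipid ranges did not overlap, yet the difference of 0.11 (SE 0.044, edgeR adjusted p = 0.0503) missed the threshold. It was called in 12 of 25 fits: with upper-quartile scaling, with edgeR's own filter, with the libraries of the comparison alone, by limma or without any 1 of untreated A, itaconate A or B, lipid A or lipid plus itaconate A, B, C or D (adjusted p from 0.00364 to 0.0494). Against itaconate it was 0.11 (SE 0.0437, edgeR adjusted p = 0.0461), higher in 4 of 4 letters. That call was lost without the letter term, with relative log expression scaling, with edgeR's own filter, with no filter, with the libraries of the comparison alone, by DESeq2 or without any 1 of untreated A, C or D, itaconate A, B, C or D, lipid B or D or lipid plus itaconate A or B (adjusted p from 0.0504 to 0.157). Psma6 rose by 0.18 (SE 0.0455, edgeR adjusted p = 0.00439) with lipid, in 4 of 4 letters, a call lost without the letter term (adjusted p 0.164). Against itaconate Psma6 rose by 0.16 (SE 0.0454, edgeR adjusted p = 0.00939), in 4 of 4 letters, a call lost without the letter term or without itaconate A (adjusted p 0.208 and 0.0513 in that order). Psma3 was not called in either comparison (0.02 and 0.07), but the second passed the threshold with upper-quartile scaling (adjusted p 0.00833). RSEM splits reads that several genes share, so counts that are not whole mark less certain levels: among the alpha genes those of Psma2, Psma3, Psma4 and Psma5, and elsewhere those of Psmb3, Psmb5, Psmc1, Psmd1, Psmd2 and Psmd11.

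In the beta ring the calls fell on some structural subunits and on no catalytic one, a contrast that was not tested. Psmb5, Psmb6 and Psmb7 carry the cutting sites: chymotrypsin-like, caspase-like and trypsin-like in that order. Of 7 tested beta genes 3 (42.9%) were higher with lipid (Psmb1, Psmb3 and Psmb4, class median 0.12). With lipid plus itaconate against itaconate 4 (57.1%) were higher (also Psmb2, class median 0.11). Of the genes tested 23.8% and 23.5% were called higher. Without the letter term the calls of Psmb1, Psmb3 and Psmb4 with lipid were lost, and those of Psmb1 and Psmb4 against itaconate. The ring's summed level was 808 ± 40.2 CPM untreated, 788 ± 43.6 CPM with itaconate, 846 ± 72.6 CPM with lipid and 842 ± 50.3 CPM with both. Psmb5 (ENSMUSG00000022193.7, GRCm38 chr14:54614119-54618022, minus strand), the most abundant of them per length at 155 CPM per kilobase, had 151, 139, 143 and 129.5 CPM untreated, 141, 149, 133 and 138 CPM with itaconate, 148, 146, 121 and 127 CPM with lipid and 149, 150.4, 136 and 129 CPM with both. The 4 groups overlapped, with lipid C and D the lowest. Its log2 fold change with lipid was −0.06 (interval −0.16 to 0.05). With upper-quartile scaling the Psmb5 value was 0.00, a shift shared by the genes tested, whose median went from 0.00473 to 0.06. With lipid plus itaconate against itaconate it was 0.01 (interval −0.09 to 0.11), and the sign turned without itaconate A (−0.03) or lipid plus itaconate B (−0.00351). It was −0.00152 with relative log expression scaling and −0.00156 by DESeq2. There the median of the genes tested, 0.00407, became −0.00723 and −0.00708.

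Psmb6 (ENSMUSG00000018286.6, GRCm38 chr11:70525367-70527858, plus strand) had 140.1, 133, 125 and 114 CPM untreated, 127, 139, 124 and 126 CPM with itaconate, 138, 141, 120.0 and 125 CPM with lipid and 139, 132, 122 and 125 CPM with both. Again the groups overlapped, with untreated D the lowest library. Its log2 fold change was 0.03 with lipid (interval −0.07 to 0.13; −0.01 without untreated D, a turned sign) and 0.00 against itaconate (interval −0.09 to 0.10). The latter sign turned without itaconate A (−0.04), lipid plus itaconate A or D (−0.01 in both) or untreated A (−0.00114). With relative log expression scaling and by DESeq2 the value was −0.01, where the median of the genes tested fell as well. Psmb7 (ENSMUSG00000026750.6, GRCm38 chr2:38588036-38644087, minus strand) had 145, 146, 139 and 143 CPM untreated, 146, 155, 133 and 141 CPM with itaconate, 154, 154, 137 and 141 CPM with lipid and 157, 152, 141 and 137 CPM with both. Its groups overlapped as well, with itaconate B among the highest and itaconate C the lowest. The log2 fold change was 0.03 with lipid (interval −0.05 to 0.11) and 0.03 against itaconate (interval −0.05 to 0.11), and with upper-quartile scaling the latter was 0.10 and called, at an edgeR adjusted p of 0.0425, while 2 of 4 letters were higher under the reported scaling. These intervals hold small differences in either direction. With lipid the highest upper end was 0.13, for Psmb6.

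Among structural beta subunits, Psmb2 (ENSMUSG00000028837.8, GRCm38 chr4:126677630-126709714, plus strand) had 68.1, 64.2, 63.0 and 61.0 CPM untreated, 62.6, 64.7, 56.5 and 58.4 CPM with itaconate, 76.8, 77.3, 61.7 and 63.3 CPM with lipid and 79.4, 75.0, 64.6 and 67.2 CPM with both. In letters A and B the lipid groups were above their controls, while lipid C was below untreated C. The log2 fold change was 0.12 (SE 0.0478, edgeR adjusted p = 0.0551) with lipid, called in 8 of 25 fits, and 0.24 (SE 0.0476, edgeR adjusted p = 0.000865) against itaconate, higher in 4 of 4 letters. The former passed the threshold with upper-quartile scaling, with edgeR's own filter or without any 1 of untreated C, itaconate A, lipid C or D or lipid plus itaconate A or C (adjusted p from 0.00586 to 0.0499). Psmb4 (ENSMUSG00000005779.12, GRCm38 chr3:94884093-94886961, minus strand) had 149, 152, 145 and 136 CPM untreated, 140.0, 142, 125 and 127 CPM with itaconate, 173, 173, 142 and 147 CPM with lipid and 159, 156, 144 and 147 CPM with both. Lipid C was the one lipid library below its untreated partner. The difference was 0.12 (SE 0.0421, edgeR adjusted p = 0.0238) with lipid, in 3 of 4 letters, and 0.18 (SE 0.0421, edgeR adjusted p = 0.00226) against itaconate, in 4 of 4 letters and without overlap. Its call with lipid was lost without the letter term or without any 1 of untreated A, B or D or lipid A or B (adjusted p from 0.0657 to 0.165). Against itaconate the loss came without the letter term (adjusted p 0.0531).

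Psmb1 (ENSMUSG00000014769.10, GRCm38 chr17:15475021-15499751, minus strand), the least abundant beta gene per length at 25.7 CPM per kilobase, had 123, 109.8, 115 and 106 CPM untreated, 114, 118, 109.8 and 108 CPM with itaconate, 133, 128, 117 and 120.0 CPM with lipid and 125, 129.6, 112 and 119 CPM with both. Its ranges overlapped, and it rose by 0.13 (SE 0.0443, edgeR adjusted p = 0.0208) with lipid and 0.11 (SE 0.0441, edgeR adjusted p = 0.0446) against itaconate, in 4 of 4 letters in both. The first call was lost without the letter term or without any 1 of untreated B or D or lipid A or D (adjusted p from 0.0501 to 0.0989). For the second the loss came without the letter term, with relative log expression scaling, with edgeR's own filter, with no filter, with the libraries of the comparison alone, by DESeq2 or without any 1 of untreated A or D, itaconate A, B, C or D, lipid B or D or lipid plus itaconate A, B or D (adjusted p from 0.0509 to 0.16). Psmb3 rose by 0.14 (SE 0.0486, edgeR adjusted p = 0.0288) with lipid, in 3 of 4 letters, a call lost without the letter term or without any 1 of untreated A, B or D or lipid A, B or D (adjusted p from 0.0534 to 0.166). Against itaconate Psmb3 rose by 0.21 (SE 0.0484, edgeR adjusted p = 0.00211), in 4 of 4 letters and in 25 of 25 fits.

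The 6 ATPases, which unfold proteins and thread them into the core, split by lipid without overlap in their summed level. It was 793 ± 5.42 CPM untreated, 776 ± 16.8 CPM with itaconate, 859.6 ± 45.9 CPM with lipid and 868 ± 32.7 CPM with both. Untreated libraries ran from 789 to 801 CPM and lipid libraries from 809 to 905 CPM, and itaconate libraries from 760.4 to 799 CPM against 832 to 898 CPM with both, so neither pair overlapped. With lipid 3 of 6 (50%) were called higher (Psmc1, Psmc2 and Psmc6, class median 0.09). With lipid plus itaconate against itaconate 6 of 6 (100%) were called higher (class median 0.15). Of the genes tested 23.8% and 23.5% were called higher. Psmc2 (ENSMUSG00000028932.7, GRCm38 chr5:21785283-21803787, plus strand), the least abundant ATPase per length at 27.5 CPM per kilobase, had 129, 129.6, 125 and 128 CPM untreated, 127, 133, 123 and 122 CPM with itaconate, 158, 160.1, 140.4 and 142 CPM with lipid and 154, 159.5, 139 and 149.7 CPM with both. Every lipid library was above the untreated ones, and every library with both above the itaconate ones. The log2 fold change was 0.23 (SE 0.0387, edgeR adjusted p = 0.000194) with lipid and 0.25 (SE 0.0386, edgeR adjusted p = 8.77e-05) against itaconate, higher in 4 of 4 letters in both. Psmc5 (ENSMUSG00000020708.12, GRCm38 chr11:106256154-106263120, plus strand), the most abundant at 93.7 CPM per kilobase, had 124, 123, 131 and 130.4 CPM untreated, 119.8, 126, 131 and 122 CPM with itaconate, 137, 139, 128 and 135 CPM with lipid and 142, 142, 131 and 130.3 CPM with both. Lipid C was below untreated C, and the groups overlapped. It gave 0.09 (SE 0.0465, edgeR adjusted p = 0.14) with lipid, not called, and 0.13 (SE 0.0464, edgeR adjusted p = 0.0323) against itaconate, in 3 of 4 letters. The latter was lost with no filter, with the libraries of the comparison alone or without any 1 of itaconate A, B or D or lipid plus itaconate A or B (adjusted p from 0.0571 to 0.124). With lipid Psmc5 was called with upper-quartile scaling (adjusted p 0.012).

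Psmc6 (ENSMUSG00000021832.8, GRCm38 chr14:45329788-45349705, plus strand) had 147, 144, 150.2 and 150.0 CPM untreated, 151, 154, 152 and 156 CPM with itaconate, 153, 168, 154 and 158 CPM with lipid and 167, 169, 159 and 168 CPM with both. The untreated libraries were the lowest, and those with both were above the itaconate range. It rose by 0.10 (SE 0.0376, edgeR adjusted p = 0.0456) with lipid and by 0.11 (SE 0.0374, edgeR adjusted p = 0.0243) against itaconate, in 4 of 4 letters in both. The first call was lost without the letter term, with relative log expression scaling, with no filter, with the libraries of the comparison alone, by DESeq2 or without any 1 of untreated A, B or D, itaconate C or D, lipid B, C or D or lipid plus itaconate D (adjusted p from 0.0548 to 0.181). The second was lost with no filter, with the libraries of the comparison alone or without any 1 of itaconate A or B or lipid plus itaconate A, B or D (adjusted p from 0.0507 to 0.12). Psmc1 (ENSMUSG00000021178.9, GRCm38 chr12:100110154-100123405, plus strand) had 163, 166, 164 and 164 CPM untreated, 157, 164, 152 and 157 CPM with itaconate, 187, 192, 166 and 173 CPM with lipid and 183, 185, 179 and 169.8 CPM with both. Its untreated libraries were the tightest, and the ranges did not overlap in either lipid comparison. It rose by 0.13 (SE 0.04, edgeR adjusted p = 0.0169) with lipid and 0.19 (SE 0.0399, edgeR adjusted p = 0.00145) against itaconate, in 4 of 4 letters in both. The call with lipid was lost without the letter term or without any 1 of untreated B or lipid A or B (adjusted p from 0.0528 to 0.0652). Psmc3 and Psmc4 were called against itaconate (0.15 and 0.14), in 24 of 25 fits each (adjusted p 0.0859 and 0.0671 without the letter term), and not with lipid against untreated (0.09 and 0.05). With lipid Psmc3 was called with upper-quartile scaling (adjusted p 0.00739) and Psmc4 likewise with upper-quartile scaling (adjusted p 0.0319).

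The 14 Psmd genes encode the other cap subunits and some chaperones of its assembly, and were mixed. With lipid 7 were higher and 1 lower (class median 0.11), against 23.8% and 23.7% of the genes tested. With lipid plus itaconate against itaconate 8 were higher and 1 lower (class median 0.16), against 23.5% each. Called in either direction were 57.1% and 64.3% of the class, against 47.5% and 47% of the genes tested. The summed level of the Psmd genes was 2391 ± 40.6 CPM untreated, 2302 ± 83.2 CPM with itaconate, 2500.1 ± 107 CPM with lipid and 2512 ± 85.2 CPM with both. Among lid subunits, Psmd3 (ENSMUSG00000017221.14, GRCm38 chr11:98682554-98695979, plus strand) had 158, 156, 156 and 145 CPM untreated, 144, 144, 143 and 136 CPM with itaconate, 188, 179, 173 and 160.2 CPM with lipid and 180.2, 170.3, 159 and 165 CPM with both. The groups with lipid lay above their controls without overlap, and untreated D was the lowest untreated library. The log2 fold change was 0.19 (SE 0.0388, edgeR adjusted p = 0.00102) with lipid and 0.25 (SE 0.0387, edgeR adjusted p = 0.000101) against itaconate, higher in 4 of 4 letters in both. Psmd14 (ENSMUSG00000026914.15, GRCm38 chr2:61711694-61800376, plus strand), the enzyme that removes ubiquitin chains, had 134, 144, 132 and 131 CPM untreated, 125, 148, 116 and 125 CPM with itaconate, 140.2, 156, 133 and 141 CPM with lipid and 147, 161, 134 and 146 CPM with both. Library B was the highest in each group, and the groups overlapped. It gave 0.07 (SE 0.0393, edgeR adjusted p = 0.15) with lipid, not called, and 0.20 (SE 0.0391, edgeR adjusted p = 0.000733) against itaconate, in 4 of 4 letters. With lipid it was called with upper-quartile scaling (adjusted p 0.0108). Psmd4, a receptor for ubiquitin chains, rose by 0.17 (SE 0.0435, edgeR adjusted p = 0.00508) with lipid and 0.24 (SE 0.0434, edgeR adjusted p = 0.000349) against itaconate, in 4 of 4 letters in both and in 25 of 25 fits. Psmd2, a scaffold of the cap base, Psmd12 and Psmd13 were also higher in both comparisons, with log2 fold changes from 0.12 to 0.23. With lipid the call was lost without the letter term, with no filter or without any 1 of untreated A or B or lipid A or B (adjusted p from 0.0522 to 0.103) for Psmd2. It was lost without the letter term (adjusted p 0.0613) for Psmd12, and without any 1 of untreated B or D or lipid A or B (adjusted p from 0.0869 to 0.125) for Psmd13. Psmd1, Psmd6, Psmd7, Psmd8 and Psmd11 were not called in either. Of these, Psmd6 gave 0.10 and 0.11 in the order of the comparisons. The first was called with upper-quartile scaling or without untreated C or lipid C (adjusted p from 0.0152 to 0.0453), and the second with upper-quartile scaling or without lipid plus itaconate B (adjusted p 0.0091 and 0.038 in that order). Psmd7, the partner of Psmd14 in the lid, gave 0.09, called with upper-quartile scaling or without lipid plus itaconate A (adjusted p 0.0035 and 0.0385 in that order), and 0.08, called with upper-quartile scaling (adjusted p 0.0051). Psmd1, a scaffold of the cap base, gave −0.01 and 0.08, the latter called with upper-quartile scaling or without lipid plus itaconate B (adjusted p 0.00663 and 0.0424 in that order). For Psmd8 the value against itaconate, 0.06, was called with upper-quartile scaling (adjusted p 0.0189). Psmd11 gave −0.04 and −0.02, called in none of the 25 fits.

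The genes for chaperones that help build the cap base, Psmd5, Psmd9 and Psmd10, held the largest rise and the single called fall with lipid against untreated. Psmd5 (ENSMUSG00000026869.12, GRCm38 chr2:34849734-34874968, minus strand) had 96.5, 98.3, 92.4 and 90.5 CPM untreated, 93.9, 104, 94.7 and 95.3 CPM with itaconate, 113, 119.9, 119 and 120.3 CPM with lipid and 125, 124, 108 and 115 CPM with both. Lipid libraries were above untreated ones and libraries with both above itaconate ones, with itaconate B the highest of its group. Its log2 fold change was 0.32 (SE 0.0454, edgeR adjusted p = 3.56e-05) with lipid and 0.28 (SE 0.0452, edgeR adjusted p = 0.00013) against itaconate, higher in 4 of 4 letters in both. Psmd9 (ENSMUSG00000029440.15, GRCm38 chr5:123169413-123250131, plus strand), the least abundant tested member per length at 3.55 CPM per kilobase, had 25.6, 22.4, 24.2 and 22.9 CPM untreated, 24.5, 24.4, 23.6 and 25.2 CPM with itaconate, 26.6, 29.5, 26.5 and 25.9 CPM with lipid and 28.4, 29.0, 27.1 and 25.7 CPM with both. Neither lipid comparison showed overlap, though untreated A was close to lipid D. It rose by 0.19 (SE 0.0597, edgeR adjusted p = 0.0164) with lipid, in 4 of 4 letters, and by 0.17 (SE 0.0589, edgeR adjusted p = 0.0266) against itaconate, in 4 of 4. Psmd9 lost its call with lipid without untreated B or lipid B (adjusted p 0.0806 and 0.0776 in that order). Against itaconate it lost it with no filter, with the libraries of the comparison alone or without any 1 of itaconate A, B or C or lipid plus itaconate A or B (adjusted p from 0.0578 to 0.0889). Psmd10 (ENSMUSG00000031429.14, GRCm38 chrX:140948429-140956728, minus strand), also known as gankyrin and as an oncoprotein of liver tumours, had 42.1, 47.0, 33.6 and 34.4 CPM untreated, 43.2, 44.1, 32.7 and 35.1 CPM with itaconate, 31.4, 33.0, 24.3 and 28.5 CPM with lipid and 31.7, 34.9, 32.7 and 31.4 CPM with both. Lipid libraries lay below untreated ones, while the group with both overlapped the itaconate group, where C and D were low. The log2 fold change was −0.42 (SE 0.0679, edgeR adjusted p = 0.000135) with lipid, lower in 4 of 4 letters, and −0.24 (SE 0.0669, edgeR adjusted p = 0.00911) against itaconate, lower in 3 of 4. The latter call was lost without the letter term or with upper-quartile scaling (adjusted p 0.118 and 0.0546 in that order).

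**Figure D3:**
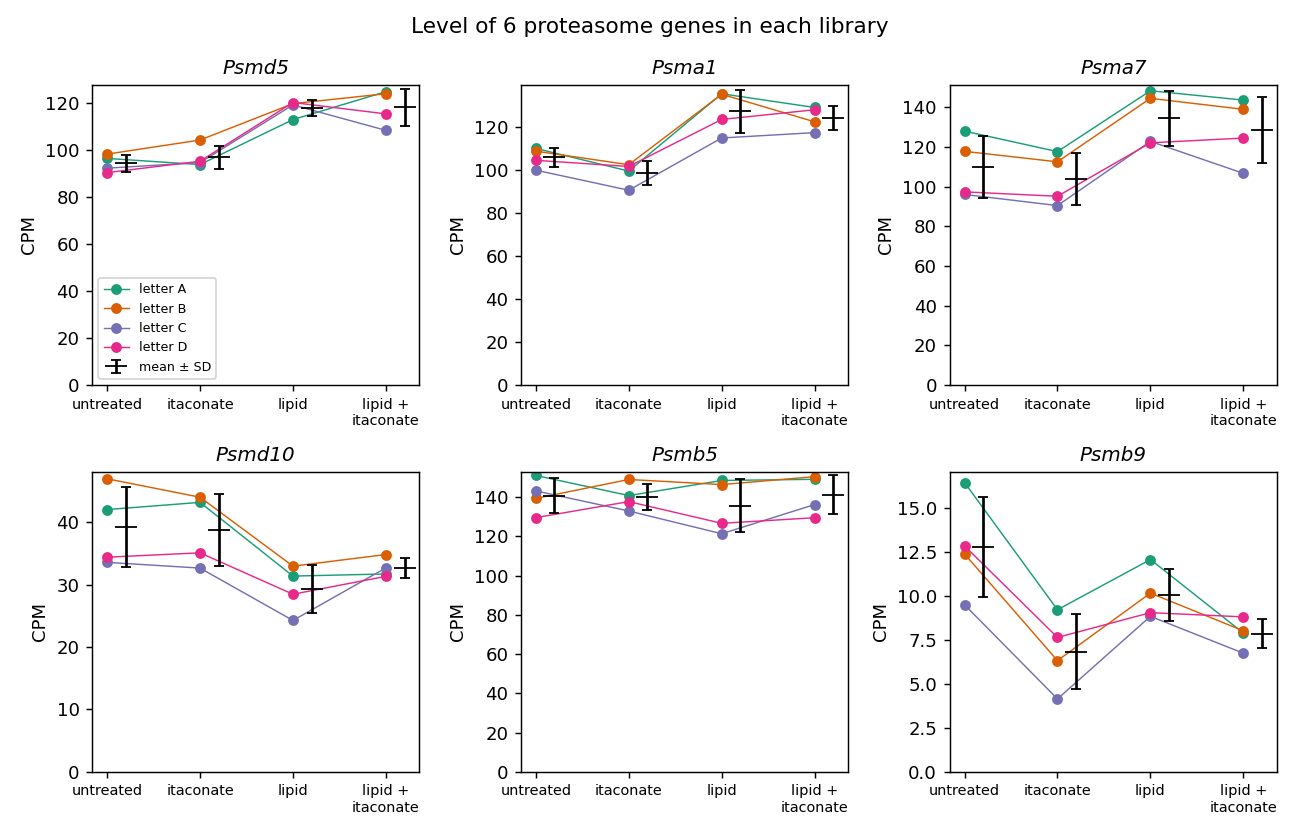
Level in CPM (vertical axis from 0) of Psmd5, Psma1, Psma7, Psmd10, Psmb5 and the immunoproteasome gene Psmb9 in each of the 16 libraries by group, with lines joining libraries of a letter and black marks for the group mean and SD. Psmd5 and Psma1 are higher with lipid in each letter, Psmd10 is lower with lipid than in untreated cells, and Psmb5 overlaps across groups.

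Itaconate alone gave lower values for most members, none past the threshold by edgeR. By edgeR 0 of 34 members were called with itaconate against untreated, where 4.91% of the genes tested were, and limma called 0. An unadjusted p under 0.05 by edgeR was found for 6 members, and for 2482 of the 11675 genes tested. DESeq2 called 1, Psmd8. The median log2 fold change was −0.03, but −0.05 with upper-quartile scaling or without untreated B, and −0.02 without untreated C. Of the members 24 (70.6%) had a negative value, against 50.5% of the genes tested, and the 6 (Psmd8, Psmd3, Psmb4, Psmc3, Psma1 and Psma4) were all negative. The SE of the members ran from 0.0345 to 0.0666. By class the median was −0.02 for the alpha ring, −0.01 for the beta ring, and −0.04 for the ATPases and for the Psmd genes. By letter the median of the members was −0.07 in A, 0.01 in B, −0.08 in C and −0.02 in D, so letter B did not share the direction. Psmd8 (ENSMUSG00000030591.17, GRCm38 chr7:29174188-29180701, minus strand), a lid subunit and the most abundant member per length at 186 CPM per kilobase, had 606, 600.1, 594 and 565 CPM untreated, 546, 586, 498 and 539 CPM with itaconate, 606, 606, 537 and 558 CPM with lipid and 585, 586, 544 and 544 CPM with both. Itaconate libraries were lower within each letter, but itaconate B lay inside the untreated range. The difference was −0.13 (SE 0.0415, edgeR adjusted p = 0.0907), lower in 4 of 4 letters. It passed the threshold with upper-quartile scaling, with the libraries of the comparison alone or by DESeq2 (adjusted p from 0.0314 to 0.0488). For Psmd3 it was −0.12 (SE 0.0388, edgeR adjusted p = 0.0991), without overlap and lower in 4 of 4 letters, and for Psmb4 −0.12 (SE 0.0422, edgeR adjusted p = 0.102), lower in 4 of 4. With the libraries of the comparison alone 3 members were called (Psmb4, Psmd3 and Psmd8), where 15.9% of the genes tested were, and Psmd3 was called without lipid plus itaconate C (adjusted p 0.0482). Psmc6 was higher than untreated in each letter without overlap (0.05, adjusted p = 0.436 by edgeR). Psmd3 and Psmc6 were the 2 members without overlap (5.88%), against 7.53% of the genes tested.

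Itaconate added to lipid gave no call among the members by edgeR, DESeq2 or limma. By edgeR 0 of 34 members were called with lipid plus itaconate against lipid, where 2.58% of the genes tested were, and DESeq2 and limma also called 0. An unadjusted p under 0.05 by edgeR was found for 1 member, and for 2025 of the 11675 genes tested. The median log2 fold change was 0.01, with 20 values positive (58.8%) and 14 negative, against 50% positive among the genes tested. It was negative with upper-quartile scaling (−0.00300) and without lipid plus itaconate A (−0.00120) or lipid C (−0.01). The member with an unadjusted p under 0.05 was Psmd10, at 0.17 (SE 0.0682, edgeR adjusted p = 0.219). Its libraries with both (31.7, 34.9, 32.7 and 31.4 CPM) were above the lipid library of their letter in 4 of 4 letters. When each library was left out its value ran from 0.08 to 0.22. Next were Psmc6 at 0.07 (SE 0.0374, edgeR adjusted p = 0.373), higher in 4 of 4 letters, and Psma7 at −0.07 (SE 0.0412, edgeR adjusted p = 0.408), lower in 3 of 4. When each library was left out Psmc6 ran from 0.05 to 0.10 and Psma7 from −0.10 to −0.04.

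Whether the lipid effect differed with itaconate was tested as an interaction, the lipid difference with itaconate minus that without it. By edgeR 0 of 34 members were called, where 0.00857% of the genes tested (1 gene) were. The count was also 0 by DESeq2 and limma. By edgeR 1 member had an unadjusted p under 0.05, as did 1004 of the 11675 genes tested. So the 6 members called with lipid in the presence of itaconate and not in its absence (Psma2, Psmb2, Psmc3, Psmc4, Psmc5 and Psmd14) are not shown to differ. The median was 0.06, but 0.02 without itaconate A or untreated C and 0.03 without lipid C. By letter it was 0.08 in A, −0.04 in B, 0.10 in C and 0.04 in D. A positive value was found for 28 members (82.4%), against 51.5% of the genes tested. The smallest p was for Psmd14, at 0.13 (SE 0.0554, edgeR adjusted p = 0.536) with an interval of 0.01 to 0.25, positive in 4 of 4 letters. Psmd10 had 0.18 (SE 0.0953, edgeR adjusted p = 0.616) and Psmb2 0.12 (SE 0.0674, edgeR adjusted p = 0.646). When each library was left out Psmd10 ran from 0.10 to 0.23 and Psmb2 from 0.08 to 0.16.

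The immunoproteasome subunits Psmb8, Psmb9 and Psmb10 replace the catalytic ones in immune cells and under interferon, and 2 of 3 were lower with itaconate alone, where 4.91% of the genes tested were called. Psmb9 (ENSMUSG00000096727.3, GRCm38 chr17:34181987-34187764, minus strand) had 16.4, 12.4, 9.50 and 12.8 CPM untreated, 9.21, 6.32, 4.14 and 7.64 CPM with itaconate, 12.1, 10.2, 8.84 and 9.05 CPM with lipid and 7.89, 8.01, 6.74 and 8.80 CPM with both. Itaconate libraries were below untreated ones without overlap, while lipid libraries overlapped untreated ones. With itaconate the log2 fold change was −0.91 (SE 0.124, edgeR adjusted p = 0.000609), lower in 4 of 4 letters. Psmb8 (ENSMUSG00000024338.15, GRCm38 chr17:34197721-34201454, plus strand), at 43.9 ± 8.04 CPM untreated and 32.8 ± 4.33 CPM with itaconate, also fell (−0.41, SE 0.0794, edgeR adjusted p = 0.00854, 4 of 4 letters). Without the letter term both calls were lost (adjusted p 0.075 for Psmb9 and 0.196 for Psmb8). Psmb10 (ENSMUSG00000031897.9, GRCm38 chr8:105935735-105938444, minus strand) missed the threshold (−0.24, SE 0.0772, edgeR adjusted p = 0.0856, lower in 4 of 4 letters) but passed it with no filter, with the libraries of the comparison alone or without lipid plus itaconate C (adjusted p from 0.00531 to 0.0418). With lipid 3 of 3 were lower, against 23.7% of the genes tested, at −0.44 for Psmb10, −0.35 for Psmb8 and −0.34 for Psmb9, each in 4 of 4 letters. The Psmb8 call was lost without the letter term (adjusted p 0.0506). The Psmb9 call was lost without the letter term, with upper-quartile scaling or without any 1 of untreated A, B or D or lipid A, B or D (adjusted p from 0.0516 to 0.174). For lipid plus itaconate against lipid and against itaconate, edgeR, DESeq2 and limma each called 0 of 3. An unadjusted p under 0.05 by edgeR was found for 1 (Psmb9, −0.35) and 0, and for 2025 and 6279 of the 11675 genes tested. Against itaconate Psmb9 (0.23) was called without lipid plus itaconate A (adjusted p 0.0321) and Psmb10 (−0.14) without lipid plus itaconate C (adjusted p 0.0495). When each library was left out Psmb9 ran there from 0.12 to 0.35 and Psmb10 from −0.20 to −0.07. Against lipid Psmb9 ran from −0.44 to −0.23. In the interaction the same tools called 0 of 3. There 3 had an unadjusted p under 0.05 by edgeR (Psmb8 0.39, Psmb9 0.56 and Psmb10 0.30), as did 1004 of the 11675 genes tested. With no filter on low counts Psmb8 (adjusted p 0.0101) and Psmb9 (0.0357) were called.

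Of 5 genes for activators and the inhibitor of the core, 1 was higher and 3 lower with lipid, against 23.8% and 23.7% of the genes tested, and 1 was higher and 1 lower with lipid plus itaconate against itaconate, against 23.5% each. Psme1 (ENSMUSG00000022216.17, GRCm38 chr14:55578123-55581529, plus strand) and Psme2, which form an activator cap used in antigen processing, fell with lipid, Psme1 from 82.3 ± 5.90 to 66.0 ± 8.05 CPM (−0.32, SE 0.0615, edgeR adjusted p = 0.000533, 4 of 4 letters) and Psme2 from 74.7 ± 4.60 to 65.1 ± 5.10 CPM (−0.20, SE 0.056, edgeR adjusted p = 0.00854, 4 of 4 letters), the latter a call lost with upper-quartile scaling (adjusted p 0.0553). With itaconate alone they gave −0.14 and −0.17, not called, but Psme1 passed the threshold with the libraries of the comparison alone (adjusted p 0.0377) and Psme2 with the libraries of the comparison alone or without lipid plus itaconate C (adjusted p 0.00948 and 0.0359 in that order). Psme4, the nuclear activator, had 225, 264, 305 and 315 CPM untreated, 259.7, 304, 359 and 350.3 CPM with itaconate, 196, 216, 239 and 250.2 CPM with lipid and 224, 245, 283 and 272 CPM with both, with letters C and D above A and B in each group. It fell with lipid (−0.29, SE 0.0405, edgeR adjusted p = 3.22e-05, 4 of 4 letters), a call lost without the letter term (adjusted p 0.058), and against itaconate (−0.31). It rose with itaconate alone (0.20, SE 0.0403, edgeR adjusted p = 0.0108, 4 of 4 letters) and when itaconate was added to lipid (0.18, SE 0.0404, edgeR adjusted p = 0.0278, 4 of 4 letters), the 1 gene of 5 called in each, against 4.91% and 2.58% of the genes tested. The first of these calls was lost without the letter term or without itaconate C (adjusted p 0.497 and 0.066 in that order), the second without the letter term, with the libraries of the comparison alone or without any 1 of lipid B, C or D or lipid plus itaconate A or B (adjusted p from 0.0593 to 0.65). Psmf1, the inhibitor of the core, rose with lipid (0.23, SE 0.0559, edgeR adjusted p = 0.00299, 4 of 4 letters) and against itaconate (0.33). In the interaction edgeR, DESeq2 and limma called 0 of 5. By edgeR 2 (Psme1 and Psme2) had an unadjusted p under 0.05, as did 1004 of the 11675 genes tested.

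Of 5 chaperones of core assembly 2 were higher with lipid (Psmg2 and Psmg3) and 3 with lipid plus itaconate against itaconate (Psmg2, Psmg4 and Pomp). These are 40% and 60% of them, against 23.8% and 23.5% of the genes tested called higher (47.5% and 47% in either direction). DESeq2 called 1 and 2 and limma 2 and 4. Psmg2, which helps set up the alpha ring, had 21.7, 19.6, 23.3 and 19.5 CPM untreated, 18.6, 21.7, 17.4 and 17.8 CPM with itaconate, 26.8, 28.7, 29.1 and 29.1 CPM with lipid and 26.3, 27.4, 26.4 and 24.1 CPM with both, without overlap between groups with and without lipid. It rose by 0.44 (SE 0.0742, edgeR adjusted p = 0.000197) with lipid and 0.47 (SE 0.0742, edgeR adjusted p = 0.000135) against itaconate, in 4 of 4 letters in both. The Psmg3 call (0.17) was lost without the letter term, with no filter, with the libraries of the comparison alone, by DESeq2 or without any 1 of untreated A, C or D or lipid A or B (adjusted p from 0.0514 to 0.129), and the Pomp call (0.12) without the letter term, with no filter, with the libraries of the comparison alone, by DESeq2 or without any 1 of untreated A, itaconate B or C or lipid plus itaconate C or D (adjusted p from 0.0509 to 0.129). With itaconate alone and added to lipid, edgeR, DESeq2 and limma called 0 of 5. An unadjusted p under 0.05 by edgeR was found for 1 (Psmg4, −0.26) and 0, and for 2482 and 2025 of the 11675 genes tested. Psmg4 was called with itaconate alone without untreated D (adjusted p 0.0365).

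Among 7 other cap subunits and bound proteins, Usp14, a deubiquitinase that trims chains at the cap, had 106, 102, 106 and 94.7 CPM untreated, 105, 106, 98.4 and 97.2 CPM with itaconate, 133, 135, 137 and 140.4 CPM with lipid and 134, 136, 125 and 121 CPM with both, and the lipid groups lay wholly above their controls. It was the 1 gene of 7 that rose, against 23.8% of the genes tested higher with lipid, by 0.42 (SE 0.0458, edgeR adjusted p = 3.35e-06) with lipid and 0.34 (SE 0.0456, edgeR adjusted p = 2.61e-05) against itaconate, in 4 of 4 letters in both. Txnl1, a thioredoxin-like protein of the cap, fell with lipid (−0.13, SE 0.0425, edgeR adjusted p = 0.0172, 4 of 4 letters), a call lost with upper-quartile scaling, with no filter or without untreated C (adjusted p from 0.0778 to 0.132). With itaconate alone or added to lipid edgeR, DESeq2 and limma called 0 of 7. An unadjusted p under 0.05 by edgeR was found for 0 and 1 (Uchl5, 0.14), and for 2482 and 2025 of the 11675 genes tested.

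Of 12 genes for ubiquitin shuttles and the p97 unfoldase with its cofactors, 4 were higher (Ufd1, Faf1 and Faf2 among them) and 2 lower (Ddi2 and Ubqln4) with lipid, and 7 higher and the same 2 lower with lipid plus itaconate against itaconate. That is 50% and 75% called, against 47.5% and 47% of the genes tested, and the number higher ran from 3 to 7 and from 5 to 9 over the fits. Ufd1, a p97 cofactor, rose by 0.29 (SE 0.0553, edgeR adjusted p = 0.000561) and 0.30 (SE 0.0549, edgeR adjusted p = 0.000469), in 4 of 4 letters in both, while Vcp, the p97 gene, was not called (0.01 and 0.08, the latter called with upper-quartile scaling (adjusted p 0.0146)). Ubqln4 (−0.17) lost its call with lipid without the letter term, with upper-quartile scaling or without untreated D (adjusted p from 0.0737 to 0.128), Faf2 (0.13) without untreated C or lipid C (adjusted p 0.0652 and 0.0603 in that order), and Ddi2 (−0.18) its call against itaconate with upper-quartile scaling (adjusted p 0.0575). For itaconate alone and added to lipid edgeR, DESeq2 and limma called 0 of 12. An unadjusted p under 0.05 by edgeR was found for 3 (Nsfl1c and Ubqln2 among them) and 0, and for 2482 and 2025 of the 11675 genes tested. With itaconate alone Nsfl1c was called with the libraries of the comparison alone (adjusted p 0.0432) and so was Ubqln2 (adjusted p 0.0341).

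Among 6 ubiquitin and ubiquitin-activating genes, 3 were lower with lipid (Ubb and Uba1 among them) and 2 with lipid plus itaconate against itaconate (Ubb among them). These are 50% and 33.3%, against 23.7% and 23.5% of the genes tested called lower (47.5% and 47% in either direction). Ubb, a polyubiquitin gene whose counts were not whole in the 16 libraries, had 1199, 1231, 1336 and 1306 CPM untreated, 1261, 1382, 1415 and 1447 CPM with itaconate, 919.8, 1054, 968 and 945 CPM with lipid and 1151, 1238, 1058 and 1126 CPM with both, each lipid group wholly below its control. It fell with lipid (−0.39, SE 0.0559, edgeR adjusted p = 4.85e-05, 4 of 4 letters) and against itaconate (−0.27, SE 0.0558, edgeR adjusted p = 0.0012, 4 of 4 letters). Added to lipid, itaconate gave 0.24 (SE 0.0558, edgeR adjusted p = 0.037) for Ubb, in 4 of 4 letters, the 1 gene of 6 called, against 2.58% of the genes tested, a call lost without the letter term, with the libraries of the comparison alone or without any 1 of untreated A or D, itaconate A, B or C, lipid A, C or D or lipid plus itaconate A, B or D (adjusted p from 0.0508 to 0.232). The Uba1 call with lipid (−0.12) was lost with upper-quartile scaling, with no filter or without lipid C (adjusted p from 0.0583 to 0.166). With itaconate alone edgeR, DESeq2 and limma called 0 of 6. By edgeR 1 (Uba1, −0.10) had an unadjusted p under 0.05, as did 2482 of the 11675 genes tested. Uba1 was called with the libraries of the comparison alone (adjusted p 0.0469), as was Ubb (adjusted p 0.0295).

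The 11 listed genes of the Nrf1 pathway, Ddi2 again among them, mostly went the other way from the subunit genes. These 11 were not divided by role, so their shared direction does not measure Nrf1 activity, which was not tested. With lipid 9 were lower and 1, Btrc, was higher, against 23.7% and 23.8% of the genes tested, and with lipid plus itaconate against itaconate 8 were lower and 2, Btrc and Fbxw7, were higher, against 23.5% each. Over the fits 6 to 9 were lower and 0 to 2 higher in the latter, where the Fbxw7 call (0.16) held in 9 of 25, and that of Btrc (0.26) was lost without itaconate B (adjusted p 0.0517). Nfe2l1 (ENSMUSG00000038615.17, GRCm38 chr11:96817414-96829968, minus strand), the gene for Nrf1 itself, had 174, 180.4, 179 and 194 CPM untreated, 173, 163, 154 and 181 CPM with itaconate, 168, 159.8, 147 and 164 CPM with lipid and 145, 138, 169 and 162 CPM with both. Lipid libraries were below the untreated ones, while lipid plus itaconate C and D lay inside the itaconate range. It fell with lipid (−0.19, SE 0.0602, edgeR adjusted p = 0.0175, 4 of 4 letters), a call lost with upper-quartile scaling or without any 1 of untreated B or lipid C or D (adjusted p from 0.0564 to 0.096). Against itaconate it gave −0.13 (SE 0.0601, edgeR adjusted p = 0.0945), not called, but it passed the threshold without itaconate C or lipid plus itaconate C (adjusted p 0.0498 and 0.00234 in that order). The small Maf partners Maff and Mafk and Ngly1, which removes sugar chains from Nrf1, fell further, by 0.58, 0.53 and 0.49 with lipid and by 0.61, 0.60 and 0.63 against itaconate. With itaconate alone Nfe2l1 gave −0.12 (SE 0.06, edgeR adjusted p = 0.271), not called, but it passed the threshold with the libraries of the comparison alone (adjusted p 0.0423). In that comparison 1 of 11 was called, against 4.91% of the genes tested: Maff, higher by 0.26 (SE 0.0653, edgeR adjusted p = 0.0311) in 4 of 4 letters, a call lost without the letter term or without any 1 of untreated A, B, C or D or itaconate A, B, C or D (adjusted p from 0.0552 to 0.116). With itaconate added to lipid edgeR and limma called 0 of 11 and DESeq2 called 1. In that comparison 1 (Maff, 0.23) had an unadjusted p under 0.05 by edgeR, as did 2025 of the 11675 genes tested. Maff was called there with no filter, by DESeq2 or without lipid plus itaconate C (adjusted p from 0.00154 to 0.0297). In the interaction edgeR, DESeq2 and limma called 0 of the core assembly chaperones, other cap proteins, shuttles, ubiquitin genes and Nrf1 pathway genes. By edgeR 1, Ubqln2 (0.17), had an unadjusted p under 0.05, as did 1004 of the 11675 genes tested.

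The promoters of the subunit genes were searched for short motifs on both strands, in 300 bases (250 before the start and 50 after) from RefSeq on GRCm38.p6. Of 36 members 29 had an entry. The letters TGACNNNGC, the core of the antioxidant response element to which Nrf1 and Nrf2 bind, were found for 5 of 29 (17.2%), against 14.0% of 27025 genes with an entry and 17.2% of 8991 tested genes. TGACTCAGC, a special case of those letters, was found for 0 of 29, against 0.503% and 0.545%. CCAAT was found for 12 (41.4%), against 41.1% and 43.4%, and GGGCGG for 18 (62.1%), against 38.2% and 69.0%. CCGGAAG, the core of the sites of ETS factors, was found for 10 (34.5%), against 9.93% and 21.5%. These are descriptions of letters and not sites, with no test.

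To show the letters for the Nrf1 motif, 30 bases around the match before the start are given for the 5 members that hold it, with the match in capitals, reading 5′ to 3′ on the gene's strand. A match on the other strand appears as its reverse complement. They lie at chr14:54618023-54618052 (minus strand) for Psmb5, chr11:70525327-70525356 (plus) for Psmb6, chr14:45329587-45329616 (plus) for Psmc6, chr5:123228149-123228178 (plus) for Psmd9 and chr11:107479278-107479307 (plus) for Psmd12. The Psmd9 window lies within Psmd9 and a further gene, Gm26745, as GENCODE draws them, outside the exons of both, and the others are outside annotated genes.
Psmb5: cgtgaagttgTGACGTCGCggcgttgccag
Psmb6: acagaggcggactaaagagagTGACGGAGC
Psmc6: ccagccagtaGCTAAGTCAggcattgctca
Psmd9: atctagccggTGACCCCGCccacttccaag
Psmd12: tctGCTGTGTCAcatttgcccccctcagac
Psmb5 and Psmb6 were not called with lipid, while Psmc6, Psmd9 and Psmd12 were higher.

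For CCGGAAG windows of 30 bases are given for 4 members that were higher in both lipid comparisons and whose window overlaps no annotated exon. They lie at chr12:55398682-55398711 (plus strand) for Psma6, chr14:45329713-45329742 (plus) for Psmc6, chr16:20651615-20651644 (plus) for Psmd2 and chr3:95042721-95042750 (minus) for Psmd4, on GRCm38.p6 from RefSeq. The Psma6 window is in an intron of the gene as GENCODE draws it. Capitals mark the match.
Psma6: agagccaccacCCGGAAGcccgcggaccgc
Psmc6: aggcgggccagCCGGAAGgggcggagccag
Psmd2: tccgcagggcgCTTCCGGtctggaggacaa
Psmd4: ttacagctgttCCGGAAGctgctgcgaagg
Psmd6 and Psmd11 hold the letters too and were not called in either lipid comparison.

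By position, 6 of the 36 members (16.7%) start close to another protein-coding gene that runs the other way: Psma2 with Mrpl32, Psma7 with Ss18l1, Psmb1 with Tbp, Psmc2 with Dnajc2, Psmc5 with Ftsj3 and Psmd10 with Atg4a. This held for 11.0% of 11036 tested protein-coding genes and 6.77% of 22028 protein-coding genes in all.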

How the data were processed

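The authors deposited expected counts per gene from RSEM 1.3.1 for 16 libraries, after bcl2fastq 2.20, Cutadapt 1.18, STAR 2.7.0f and Picard 2.18.26 on mm10, as the submitters' notes state. Of the values 5.41% were not whole and were rounded. Genes averaging 1 CPM or more were kept (11675 of 55450) and scaled by TMM. They were tested with the edgeR 4.0.16 quasi-likelihood test in R 4.3.3, with treatment and letter as terms, and p adjusted by Benjamini-Hochberg, at 0.05. The labels give the letters. Residual profiles of libraries sharing a letter correlated at 0.144 to 0.469 (24 pairs), and those of other letters at up to 0.178 (72 pairs). Alternatives were no letter term, upper-quartile and relative log expression scaling, other filters, the libraries of a comparison alone, DESeq2 1.42.0, limma 3.58.1 and leaving out each library. The steps were tested on simulated data. Positions and exon lengths come from GENCODE on GRCm38. Values in every library are given for the catalytic genes, the most and least abundant member of each class per length, and the called members with the largest changes (at most 6 in each direction, or the 3 with the smallest p where none passed). From each other list at most 4 called genes per comparison are named, with Psmb8, Psmb9, Psmb10, Psme1, Psme2 and Nfe2l1 whatever their values. Some genes of these lists are not reported here. Further names were picked once values were known. The chaperone Paaf1 was not analysed here. Members and lists were chosen with earlier results of these data known.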

Additional observations from a re-analysis of the deposited data

Results flagged for a closer look

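Among 192 groups of 4 libraries looked at, which cover the genes named by rule and the summed level of the members, 4 had a library far from the other 3 of its group, where chance marks about 1 in 20 groups. The share marked is below that, so the 4 are not shown to be unusual. For Psmd3, a lid subunit, untreated D (145 CPM) lay below the other untreated libraries, with a gap of 0.833 of the group's range, and itaconate D (136 CPM) lay below the other itaconate libraries, with a gap of 0.862 of the range. For Psmd5, a chaperone of cap assembly, itaconate B (104 CPM) lay above its group, with a gap of 0.864 of the range, and lipid A (113 CPM) lay below its group, with a gap of 0.859 of the range.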

How the results depend on the processing

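The directions of the median log2 fold change with lipid (0.11 and 0.15) held in each setting tried, and no call turned its direction. With itaconate against untreated the number of members called, 0, became 1 with upper-quartile scaling, 1 by DESeq2 (Psmd8 in both) and 3 with the libraries of the comparison alone, and 0 to 1 when each library was left out. With lipid against untreated 19 became 9 without the letter as a block, 27 with upper-quartile scaling, and 10 to 22 when each library was left out. With lipid plus itaconate against itaconate 25 became 17 without the block and 30 with upper-quartile scaling. That scaling took the median of 0.11 to 0.17 and that of 0.15 to 0.22, where the median of the genes tested was 0.06 and 0.07. The cause of these differences was not tested. The interaction uses the 16 libraries together, so a fit with the libraries of the comparison alone was not run for it. With 4 libraries a group, the smallest member difference called in the reported fit was 0.10 on the log2 scale, for Psmc6 with lipid.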
